A study of Mus musculus with 6 samples.

Results

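Polycomb group proteins keep developmental genes silent by marking histones, and 34 mouse genes for their subunits and for the enzymes that remove their marks were followed through a 6 h exposure of embryonic stem cells to SC1. SC1, also called pluripotin, is a small molecule described as an inhibitor of the kinase ERK1 and of RasGAP, a protein that switches RAS off. The members were the genes on a list of Polycomb subunits and opposing enzymes that had an array probe carrying one of their transcript accessions. All 34 were found, with 48 probes, among 25422 genes tested with 35324 probes. The cells were J1, a single embryonic stem cell line of the 129S4/SvJae strain adapted to gelatin without feeder cells, and every sample grew in serum replacement medium with 1000 U/ml of the cytokine LIF. One group of 3 samples received 1 µM SC1 and the other group of 3 received DMSO, the solvent. Each sample was total RNA with Cy3 as the label, and was measured on 1 single-colour Agilent array. The labels do not say that the 3 samples of a group were separate cultures, so the p-values below describe only how far these 6 samples scatter, which could be technical scatter.

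Polycomb repressive complex 2 (PRC2) methylates lysine 27 of histone H3 through Ezh1 or Ezh2 held in a core with Eed and Suz12. Polycomb repressive complex 1 (PRC1) ubiquitinates histone H2A through Ring1 or Rnf2. In canonical PRC1 a chromobox protein reads methylated lysine 27, and in variant PRC1 Rybp or Yaf2 takes the place of the chromobox protein. In embryonic stem cells both complexes sit on CpG islands of genes for later development, many of which also carry methylated lysine 4 of histone H3 and are then called bivalent. The array reports RNA and not protein, complex assembly or histone marks. In bulk RNA, fewer cells that express a gene and less RNA per cell cannot be told apart.

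The share of probes well above background was 65.0% to 65.6% in DMSO and 63.2% to 65.1% in SC1. Levels are the log2 processed signal of a gene's brightest probe minus the log2 of the 75th percentile of all probes on that array, so a level of 0 is that percentile and no level can be set against that of another probe. The main probe of each of the 34 members was well above background on all 6 arrays. All arrays lay on 1 slide and were scanned at 1 time. The first row of the slide held the 3 DMSO arrays and SC1 array 1, and the second held SC1 arrays 2 and 3. All 10 embryonic stem cell markers were above background on every array, with a summed linear level of 603 to 622 in DMSO and 609 to 643 in SC1. That sum does not show the changes of single markers. By the test described below, 3 of the 10 were higher with SC1 and 4 lower, where 38.4% of all genes passed. Their log2 fold changes ran from -2.35 to 0.90. Of 8 markers each, 6 of embryonic fibroblasts, 7 of primitive endoderm and 5 of trophoblast were above background on all SC1 arrays, with Lum, Postn, Elf5 and Hand1 not above background on any array. Their summed levels were 2.52 to 2.65 in DMSO against 2.06 to 2.15 in SC1 for fibroblasts, 0.869 to 0.931 against 0.882 to 0.987 for primitive endoderm, and 4.09 to 4.31 against 5.74 to 5.89 for trophoblast. These sums are weighted by their brightest genes. Among fibroblast markers above background on all 6 arrays, 3 of 6 were higher by the same test and 1 lower. For primitive endoderm 2 of 6 were higher and 0 lower, and for trophoblast 3 of 5 were higher and 1 lower. The part of these markers in the results that follow was not tested.

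After 6 h of SC1, 9 of the 34 members were higher, 8 were lower and 17 did not pass (limma, Benjamini-Hochberg adjusted p under 0.05 over all genes). Across all genes tested, 38.4% passed, 19.2% higher and 19.1% lower. Of the genes that passed 50.1% were higher, and 61.1% were when the background was modelled with normexp and arrays were scaled to the 75th percentile, with 12 members higher and 10 lower. The median log2 fold change was 0.0042 over the members and 0.0082 over all genes. Cbx8, a chromobox reader of canonical PRC1, rose 4.55-fold. Kdm2b, which brings a variant PRC1 to unmethylated CpG islands, and Phc1, a canonical PRC1 subunit that can polymerise, each fell 1.86-fold. Cbx8 was the only member past 2-fold, where 2.33% of all genes passed and were at least 2-fold higher and 1.86% passed and were at least 2-fold lower. SC1 and DMSO arrays did not overlap for 21 members, against 52.5% of all genes. Of these 21 the 4 that did not pass were Suz12, Cbx6, Bcor and Asxl1.

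**Figure D1:**
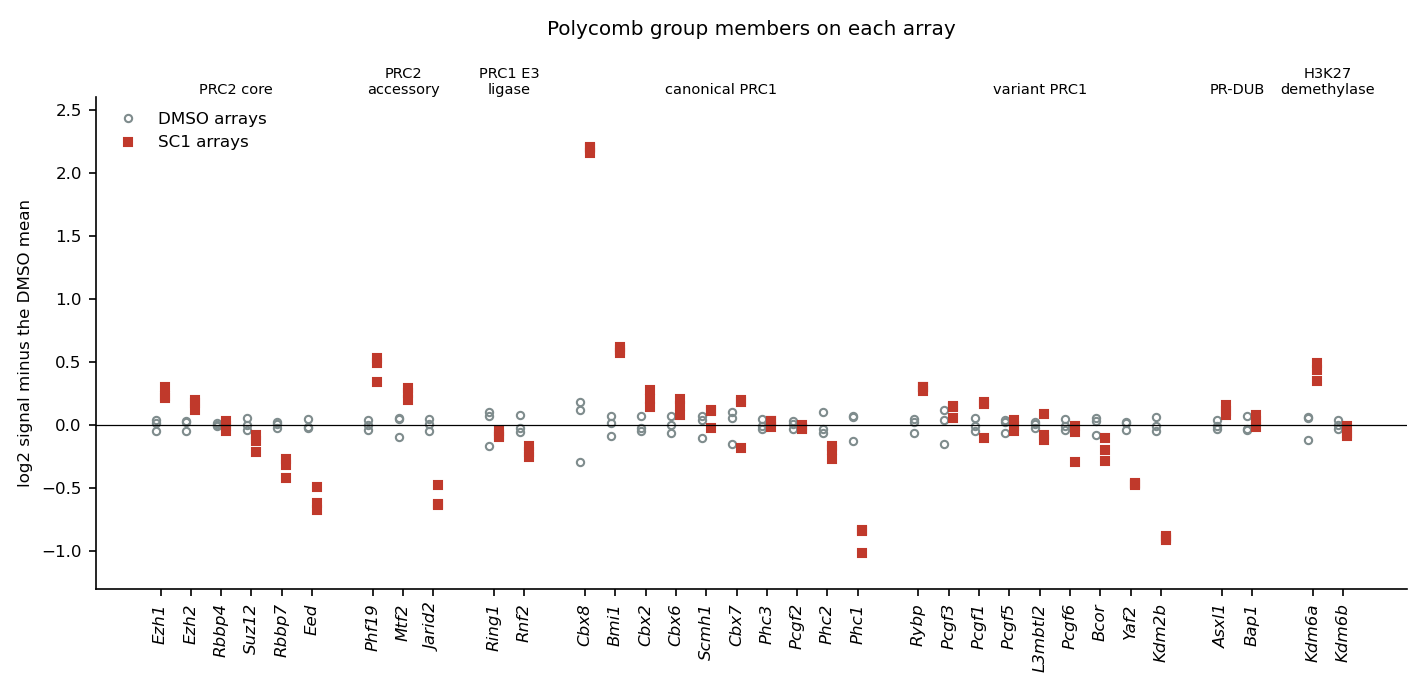
Log2 signal of each Polycomb group member on each array minus that member's mean over the 3 DMSO arrays, with open circles for DMSO arrays and red squares for SC1 arrays, grouped by role. Cbx8 lies above 2 on all 3 SC1 arrays, Kdm2b and Phc1 lie furthest below 0, and most other members stay within 0.5 of the line at 0.

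Within the PRC2 core, the scaffold Eed fell and the catalytic subunits did not. Eed binds the methylated histone tail and stimulates the enzyme. Its level was 5.89, 5.96 and 5.88 on the DMSO arrays and 5.29, 5.24 and 5.41 on the SC1 arrays. Every SC1 array was below every DMSO array, with a log2 change of -0.60 with SE 0.059 (adjusted p = 0.000747). Rbbp7, a histone-binding WD40 protein that PRC2 shares with other complexes, stood at 5.68, 5.66 and 5.63 in DMSO and at 5.23, 5.33 and 5.38 in SC1. It also fell, by 0.34 on the log2 scale (SE 0.051, adjusted p = 0.0037). Its paralog Rbbp4 gave overlapping groups, from 5.55 to 5.57 in DMSO and from 5.51 to 5.59 in SC1, and a log2 fold change of -0.01 (adjusted p = 0.86).

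The methyltransferase genes moved a little upward. Ezh1, the enzyme that predominates in resting cells, had levels of 2.76, 2.84 and 2.82 in DMSO and 3.04, 3.02 and 3.10 in SC1. Its log2 fold change was 0.25 (SE 0.046, adjusted p = 0.00824), and the groups did not overlap. Ezh2, the enzyme of dividing cells, had levels of 2.77, 2.76 and 2.69 in DMSO and 2.91, 2.94 and 2.86 in SC1. The separation was small, with a log2 change of 0.16 with SE 0.046 (adjusted p = 0.0352). Its call was lost when any single array was left out, with adjusted p between 0.0524 (without SC1 array 3) and 0.103 (without DMSO array 3). Suz12, which holds the core together, stood at 3.56, 3.66 and 3.60 in DMSO and at 3.48, 3.40 and 3.52 in SC1. Its groups did not overlap, but its log2 fold change of -0.14 did not pass (SE 0.052, adjusted p = 0.075).

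All 3 PRC2 accessory members changed, 1 downward and 2 upward, where 38.4% of all genes passed. Jarid2, which helps bring PRC2 to its targets and marks the PRC2.2 form, had levels of 4.46, 4.42 and 4.37 in DMSO and 3.94, 3.77 and 3.78 in SC1. The SC1 arrays were all lower, with a log2 change of -0.58 with SE 0.060 (adjusted p = 0.000888). The Polycomb-like proteins Phf19 and Mtf2 belong to the alternative PRC2.1 form and rose. Phf19 had levels of -0.16, -0.12 and -0.08 in DMSO and 0.22, 0.41 and 0.37 in SC1, a log2 change of 0.46 with SE 0.063 (adjusted p = 0.00263). Mtf2, which binds CpG-rich DNA, had levels of 4.56, 4.41 and 4.57 in DMSO and 4.71, 4.77 and 4.80 in SC1. Its log2 fold change was 0.25 (SE 0.059, adjusted p = 0.02), with adjusted p = 0.055 without SC1 array 2 and 0.0643 without SC1 array 3. A second Mtf2 probe, designed to another transcript, gave a log2 fold change of 0.03 (adjusted p = 0.659 over all probes).

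The ubiquitin ligases of PRC1 changed little. Rnf2, the main H2A ligase of embryonic stem cells, had levels of 3.49, 3.39 and 3.36 in DMSO and 3.19, 3.16 and 3.24 in SC1. The SC1 arrays were lower throughout, with a log2 change of -0.21 with SE 0.052 (adjusted p = 0.0213). That call was lost without DMSO array 1 (adjusted p = 0.0517), DMSO array 2 (0.0516), SC1 array 1 (0.0625) or SC1 array 2 (0.0621). Ring1, the other ligase, ranged from -1.94 to -1.67 in DMSO and from -1.87 to -1.83 in SC1, and did not pass (log2 fold change -0.08, adjusted p = 0.487).

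Canonical PRC1 held the largest change of the members. Cbx8 stood at -4.99, -5.47 and -5.06 in DMSO and at -2.97, -3.02 and -2.98 in SC1. The groups lay far apart, with a log2 change of 2.19 with SE 0.128 (adjusted p = 0.000116). Cbx8 was dim, with a processed signal of 13.7 to 19.2 in DMSO and 63.6 to 71.2 in SC1. When the background was modelled with normexp and arrays were scaled by quantiles, the direction and the call stayed and the log2 fold change shrank to 0.77. Cbx2, a chromobox protein that compacts chromatin, had levels of 0.56, 0.58 and 0.68 in DMSO and 0.89, 0.75 and 0.81 in SC1. It rose by less, with a log2 change of 0.21 with SE 0.056 (adjusted p = 0.0312). The Cbx2 call was lost without DMSO array 1 (adjusted p = 0.0908), DMSO array 2 (0.0914), SC1 array 1 (0.0867) or SC1 array 3 (0.0772).

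Cbx7, described as the main chromobox reader of self-renewing embryonic stem cells, ranged from -3.86 to -3.61 in DMSO and from -3.90 to -3.52 in SC1. The ranges overlapped, and its log2 fold change of 0.06 did not pass (adjusted p = 0.733). Cbx7 was dim too, with a processed signal of 41.8 to 50.0 in DMSO and 33.7 to 48.1 in SC1. Cbx6 had 3 probes, and its brightest gave a log2 fold change of 0.14 (adjusted p = 0.0949) with groups that did not overlap. Its other probes gave -0.01 and 0.12, neither of which passed. In the RefSeq gene table Cbx2 and Cbx8 are consecutive protein-coding genes on chromosome 11, and both were higher with SC1.

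Among the PCGF subunits that define the type of PRC1, Bmi1 rose and Pcgf2 did not pass. Bmi1, also named Pcgf4, is the subunit of canonical PRC1 best known from adult stem cells. Its level was -0.03, 0.08 and 0.13 in DMSO and 0.63, 0.68 and 0.65 in SC1. The groups were well apart, with a log2 change of 0.59 with SE 0.053 (adjusted p = 0.000503), and its second probe gave 0.67. Pcgf2, the canonical subunit also called Mel18, ranged from 0.55 to 0.60 in DMSO and from 0.54 to 0.58 in SC1, a log2 fold change of -0.02 (adjusted p = 0.714).

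The polyhomeotic genes moved down or did not pass. Phc1 stood at 3.95, 3.76 and 3.96 in DMSO and at 3.05, 2.87 and 3.06 in SC1. Its log2 fold change was -0.90 (SE 0.082, adjusted p = 0.000543), with a wide gap between the groups. Phc2 had levels of 2.62, 2.46 and 2.49 in DMSO and 2.35, 2.25 and 2.32 in SC1, a log2 change of -0.21 with SE 0.059 (adjusted p = 0.0338). Its call was lost without DMSO array 1 (adjusted p = 0.0711), DMSO array 3 (0.068), SC1 array 1 (0.0598), SC1 array 2 (0.0915) or SC1 array 3 (0.0772). Phc3 ranged from -1.10 to -1.02 in DMSO and from -1.08 to -1.04 in SC1, and Scmh1, a Scm homolog that joins the polyhomeotic proteins, from -1.17 to -0.99 and from -1.09 to -0.95. Both pairs of ranges overlapped, with log2 fold changes of 0.01 and 0.07 and adjusted p of 0.813 and 0.482.

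Variant PRC1 had 1 member higher, 2 lower and 6 that did not pass, so 33.3% passed against 38.4% of all genes. Kdm2b stood at 4.91, 4.80 and 4.84 in DMSO and at 3.97, 3.95 and 3.94 in SC1. It had the smallest adjusted p of the members, with a log2 change of -0.90 with SE 0.045 (adjusted p = 6.93e-05) and -0.93 at a second probe. Of the complex that Kdm2b directs to CpG islands, Pcgf1 and the main Bcor probe did not pass. Rnf2, Rybp, Yaf2 and Skp1, which can also belong to it, passed and are described in other paragraphs. Pcgf1 ranged from -0.56 to -0.46 in DMSO and from -0.62 to -0.34 in SC1, a log2 fold change of 0.08 (adjusted p = 0.518). The corepressor Bcor had levels of 1.88, 1.86 and 1.75 in DMSO and 1.63, 1.54 and 1.72 in SC1, and its log2 fold change of -0.20 did not pass (adjusted p = 0.0554). Without SC1 array 3 it was -0.24 and passed (adjusted p = 0.046). A second Bcor probe, designed to a noncoding transcript of the gene, rose by 0.36 (adjusted p = 0.00225 over all probes), so the gene's probes differed in direction.

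Rybp and Yaf2, which replace one another in variant PRC1, moved in opposite directions. Rybp had levels of 4.94, 4.83 and 4.91 in DMSO and 5.19, 5.19 and 5.16 in SC1, a log2 change of 0.29 with SE 0.045 (adjusted p = 0.00412). Yaf2 had levels of 1.58, 1.52 and 1.58 in DMSO and 1.09, 1.08 and 1.10 in SC1, a log2 change of -0.47 with SE 0.039 (adjusted p = 0.000376). A second Yaf2 probe gave -0.44. Pcgf3, Pcgf5 and Pcgf6, which define further variant complexes, and L3mbtl2, a subunit of the Pcgf6 complex, had overlapping groups and did not pass. Their log2 fold changes were 0.11, -0.01, -0.12 and -0.04, in that order, with adjusted p from 0.302 to 0.93.

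Of the opposing enzymes, only Kdm6a passed. Kdm6a, also named UTX, removes methyl groups from lysine 27 of histone H3. It had levels of 0.27, 0.09 and 0.28 in DMSO and 0.70, 0.56 and 0.65 in SC1, a log2 change of 0.42 with SE 0.069 (adjusted p = 0.00507). Its paralog Kdm6b overlapped, from 1.84 to 1.90 in DMSO and from 1.78 to 1.85 in SC1 (log2 fold change -0.06, adjusted p = 0.345). The H2A deubiquitinase Bap1 and its partner Asxl1 did not pass, with log2 fold changes of 0.03 and 0.12 and adjusted p of 0.683 and 0.0799.

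**Figure D2:**
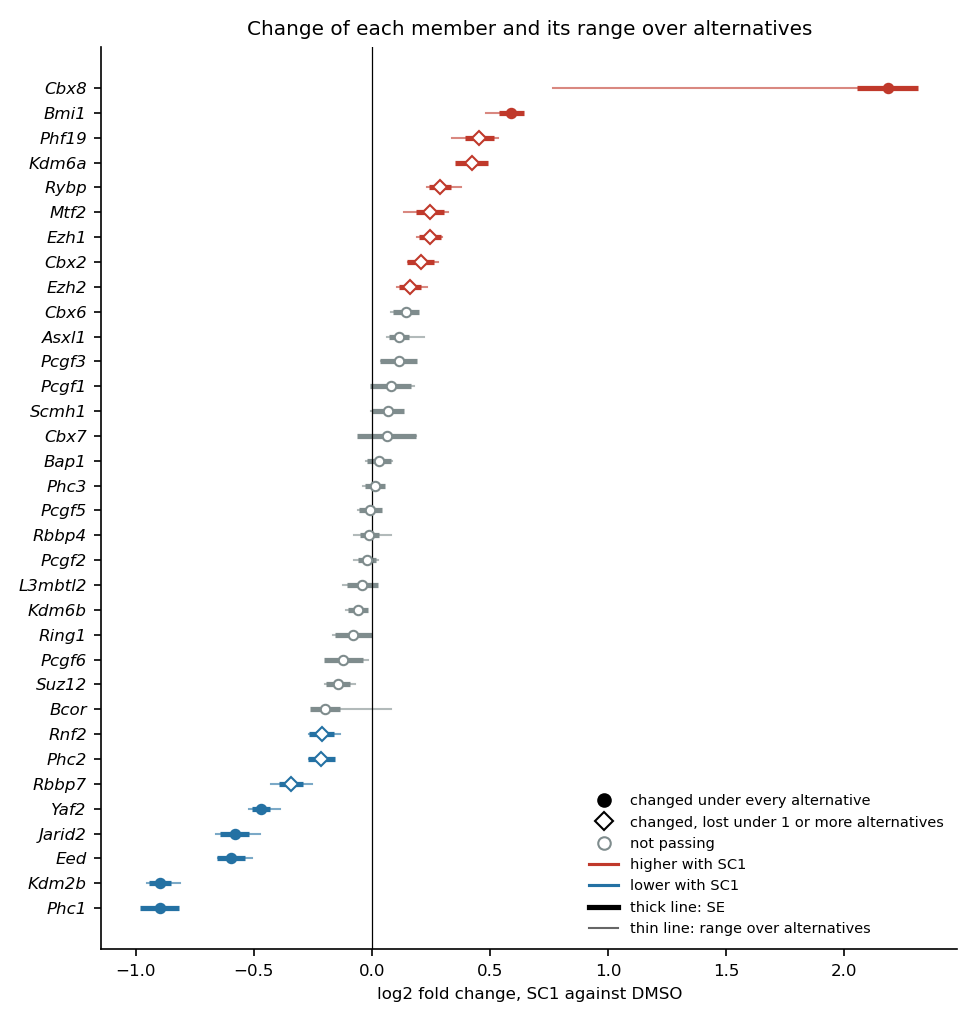
Log2 fold change of SC1 against DMSO for each of the 34 members (point), with its SE (thick line) and its range over 21 alternative ways of processing (thin line), ordered by size. Filled points are the 7 members that passed under every alternative, of which Cbx8 alone has a range wider than 1, and diamonds are the 10 that lost their call under at least 1.

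Under 21 alternative settings of scaling, background, filtering, probe choice, blocks, threshold and left-out arrays, 7 members passed each time in the same direction. These were Eed, Jarid2, Phc1, Kdm2b and Yaf2, which were lower, and Bmi1 and Cbx8, which were higher. Some passed narrowly. With the slide column as a block the limma adjusted p was 0.05 after rounding for Phc1 and 0.0489 for Yaf2. For the rest of these members it ran from 0.0284 for Kdm2b to 0.0399 for Eed. The other 10 called members lost their call under at least 1 setting. The share of all genes that passed under every setting was not computed. SC1 array 1, the only SC1 array in the slide row of the DMSO arrays, differed from the DMSO mean by 2.20 for Cbx8 and 0.57 for Bmi1 on the log2 scale. It differed by -0.62 for Eed, -0.47 for Jarid2, -0.84 for Phc1, -0.88 for Kdm2b and -0.47 for Yaf2. For the other called members these single-array differences ran in the direction of the main result too, from 0.17 for Ezh2 to 0.49 for Kdm6a among those that rose. With the slide row as a block, the fitted change is this same difference between SC1 array 1 and the DMSO mean. Under that block 5 members were higher and 6 lower, and with the slide column 3 and 5. Of all genes 21.8% and 12.8% passed under these blocks, in that order.

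As complexes, PRC1 and PRC2 differed by less than the spread between SC1 arrays under the main setting, and by more, with either sign, under some alternatives. Of 9 PRC2 members 4 were higher and 3 lower, and of 21 PRC1 members 4 were higher and 5 lower. So 77.8% of the PRC2 members and 42.9% of the PRC1 members passed, against 38.4% of all genes. The difference between these shares was not tested. The median log2 fold change was -0.01 in each, and the PRC1 median exceeded the PRC2 median by 0.0043 (SD over the 3 SC1 arrays 0.040). On single SC1 arrays the difference was -0.014, -0.043 and 0.036, so its sign varied within the group. Quantile normalization turned it to -0.088, and the mean of a gene's probes gave 0.10. The 10 canonical PRC1 subunits had a median of 0.06 and the 9 variant subunits one of -0.04, with 3 higher and 2 lower against 1 higher and 2 lower.

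Because many members are paralogs that can stand in for one another, the change of one was set against that of the other within each array for 11 pairs. SC1 and DMSO arrays did not overlap for 7 pairs, each at the smallest p that an exact two-sided permutation test of 3 against 3 arrays allows, 0.10 (adjusted over the 11 pairs 0.157). Of all single genes 52.5% did not overlap, and the share over other pairs of genes was not computed. No pair can therefore pass 0.05. On the log2 scale Cbx2 changed by 1.98 less than Cbx8 (SE 0.15), a difference that shrank to 0.54 with normexp and quantile scaling. Rybp changed by 0.76 more than Yaf2 (SE 0.021), Kdm6a by 0.48 more than Kdm6b (SE 0.078) and Rbbp4 by 0.33 more than Rbbp7 (SE 0.060). In the other direction the differences were -0.69 for Phc1 minus Phc2 (SE 0.063), -0.61 for Pcgf2 minus Bmi1 (SE 0.058) and -0.21 for Mtf2 minus Phf19 (SE 0.067). Ezh1 and Ezh2, Ring1 and Rnf2, Pcgf3 and Pcgf5, and Cbx6 and Cbx7 gave overlapping groups, with differences of 0.084, 0.13, 0.12 and 0.082 and exact permutation p from 0.2 to 0.5.

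**Figure D3:**
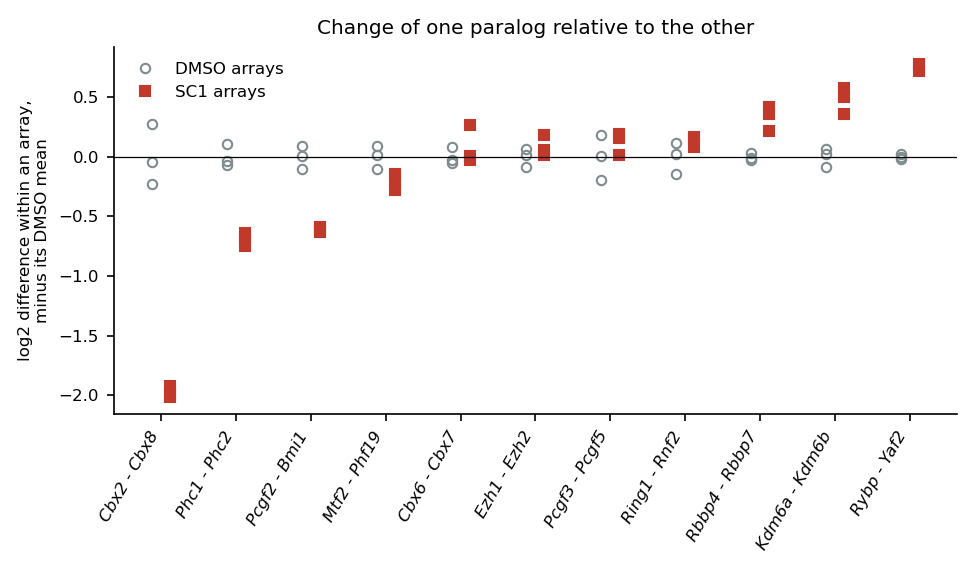
Log2 signal of the first paralog minus that of the second on each array, set to 0 at the mean of the DMSO arrays, with open circles for DMSO arrays and red squares for SC1 arrays. In 7 of the 11 pairs the SC1 arrays lie outside the DMSO range, from Cbx2 minus Cbx8 near -2 to Rybp minus Yaf2 near 0.76.

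Several members were measured by more than 1 probe. Of 12 such members, 11 had more than 1 probe above the filter, and none had probes that passed in opposite directions. For Kdm2b, Yaf2, Rbbp7 and Bmi1 all kept probes passed the same way. Rbbp7 gave -0.34 and -0.43, and Ezh1 gave 0.25 and 0.28 at a pair of probes that passed and 0.12 at one that did not.

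**Figure D4:**
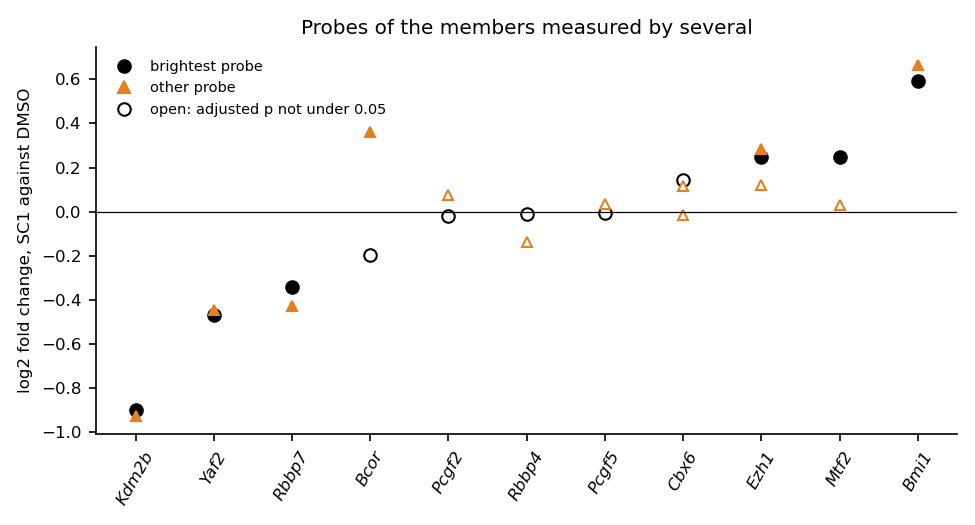
Log2 fold change of SC1 against DMSO for every kept probe of the 11 members with several, with black circles for the brightest probe, orange triangles for the others and open symbols for an adjusted p that is not under 0.05. The probes of Kdm2b, Yaf2, Rbbp7 and Bmi1 lie close together, and those of Bcor lie on both sides of 0.

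Promoter sequences show what DNA lies upstream of the members that moved most. Of the 34 members, 29 had a promoter entry in RefSeq (GRCm38.p6), with 40 windows of 300 bases, and Cbx2, Pcgf1, Rybp, Yaf2 and Kdm6b had none. The 250 bases before the start are shown for the pair with the largest increases and the pair with the largest decreases among the 7 members that passed under every alternative. They run 5′ to 3′ along the gene, with capitals for matches to 4 motifs searched on both strands. For Kdm2b, which has 4 windows, the one furthest upstream is shown.
Cbx8 chr11:119040914-119041163 (- strand): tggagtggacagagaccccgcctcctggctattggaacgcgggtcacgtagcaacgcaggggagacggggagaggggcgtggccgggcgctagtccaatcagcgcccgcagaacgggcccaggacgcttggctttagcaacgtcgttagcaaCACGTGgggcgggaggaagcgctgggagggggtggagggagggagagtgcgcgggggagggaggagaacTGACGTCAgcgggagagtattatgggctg
Bmi1 chr2:18676768-18677017 (+ strand): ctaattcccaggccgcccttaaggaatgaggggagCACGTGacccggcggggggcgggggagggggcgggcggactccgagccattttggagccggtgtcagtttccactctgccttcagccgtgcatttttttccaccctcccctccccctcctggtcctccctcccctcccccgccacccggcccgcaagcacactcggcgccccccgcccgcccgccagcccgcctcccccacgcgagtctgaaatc
Kdm2b chr5:122989100-122989349 (- strand): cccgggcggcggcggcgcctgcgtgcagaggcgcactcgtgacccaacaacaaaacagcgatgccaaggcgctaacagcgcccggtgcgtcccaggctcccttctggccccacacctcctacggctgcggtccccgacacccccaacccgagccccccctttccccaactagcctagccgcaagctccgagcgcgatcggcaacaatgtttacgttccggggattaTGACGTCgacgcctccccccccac
Phc1 chr6:122340228-122340477 (- strand): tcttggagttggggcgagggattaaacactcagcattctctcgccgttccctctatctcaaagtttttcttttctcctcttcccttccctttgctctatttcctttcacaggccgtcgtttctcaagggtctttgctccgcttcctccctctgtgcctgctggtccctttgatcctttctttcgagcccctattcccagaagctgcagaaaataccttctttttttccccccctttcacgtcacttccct

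The motifs were CACGTG (the E-box), TGACGTC (the core of the cAMP response element), CCGGAAG (an ETS site) and TTCCCGC (an E2F site). The Cbx8 stretch holds CACGTG beginning 98 bases before the start and 2 overlapping matches to TGACGTC on opposite strands. CACGTG begins 215 bases before the Bmi1 start, and the Phc1 stretch holds none of the 4. TGACGTC begins 24 bases before the start used for the Kdm2b stretch, and the other Kdm2b windows hold no TGACGTC. Which Kdm2b start the cells use was not tested. Over the 300-base windows, CACGTG was found for 9 of the 29 members and for 8.09% of all genes, and TGACGTC for 4 of 29 and 3.6%. CCGGAAG was found for 2 of 29 and 9.93%, and TTCCCGC for 5 of 29 and 5.29%. By call, CACGTG was found for 3 of 7 higher members, 1 of 7 lower members and 5 of 15 that did not pass. The members' windows held a median of 23.5 CpG dinucleotides and all windows a median of 7, so the windows differ in base composition. These are matches of letters and were not tested as binding sites.

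Genes that work with the complexes but are not among the 34 changed in both directions. Of 6 other PRC2-associated genes, 2 were lower and 4 did not pass. Epop, which tempers PRC2 on active CpG islands, fell by 0.33 on the log2 scale (SE 0.053, adjusted p = 0.00465), and Ezhip, an inhibitor of PRC2, fell by 0.34 (SE 0.055, adjusted p = 0.00526). Of 22 other PRC1-associated genes tested, 4 were higher and 3 lower. Sfmbt2, a Polycomb protein with MBT domains, rose from -0.14, -0.14 and -0.16 in DMSO to 0.84, 0.85 and 0.78 in SC1 (log2 fold change 0.97, SE 0.039, adjusted p = 3.5e-05). Bcorl1, a homolog of Bcor, rose by 0.35, and Skp1, a partner of Kdm2b, fell by 0.21 and did not pass under quantile normalization. The count of lower genes in that list was 1 without DMSO array 1, DMSO array 3, SC1 array 1 or SC1 array 3.

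Among 10 further genes of H2A deubiquitination, 2 were higher and 4 lower. Mbd5 and Mbd6, which bind the Bap1 complex, had log2 fold changes of 0.60 and 0.27. Foxk1, a forkhead factor that binds Bap1, had a log2 fold change of -0.37, and Ogt, the O-GlcNAc transferase of that complex, one of -0.32. The count of lower genes was 2 without any single array. Among 16 genes of the opposing methylation of lysine 4 and related marks, 4 were higher and 2 lower. The methyltransferase Kmt2c rose by 0.56, its complex partner Ncoa6 by 0.41 and Nsd1, another histone methyltransferase, by 0.35, while Rbbp5, a core subunit of these complexes, fell by 0.31 on the log2 scale. Without DMSO array 1, DMSO array 2, SC1 array 2 or SC1 array 3, 1 gene of that list was lower. In the order given, 33.3%, 31.8%, 60% and 37.5% of the tested genes of these lists passed, against 38.4% of all genes.

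Hox genes, the best known Polycomb targets, gave 13 lower and 4 higher among 21 tested, where 19.1% of all genes were lower and 19.2% higher. The other 18 of 39 Hox genes did not pass the filter on dim probes. A gene could pass that filter through 1 group alone, and of the 15 Hox genes above background on all 6 arrays 7 were lower and 4 higher. Hoxc13, a late gene, had levels of -3.51, -3.36 and -3.35 in DMSO and -2.13, -2.36 and -2.23 in SC1, and rose by 1.17 (SE 0.078, adjusted p = 0.000181), or by 0.62 at the smallest over the alternatives.

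Hoxb5 and Hoxa5 were not well above background on any SC1 array. Hoxb5 was at least 4.27-fold lower with SC1 and Hoxa5 at least 1.13-fold lower. Their limma adjusted p of 0.000103 and 2.63e-05 are for fitted log2 changes of -2.79 and -2.40. Those fitted changes use SC1 signals not above background, so the p-values do not test the bounds. Each bound sets the DMSO mean against the lowest signal among probes well above background on the SC1 arrays, or the probe's own signal where that was higher. Hoxa2 and Hoxd1 were likewise not well above background on any SC1 array, and were at least 1.36-fold and 1.24-fold lower. These bounds are for the main background correction. With normexp and 75th percentile scaling the fitted log2 fold change was -0.55 for Hoxb5, -0.088 for Hoxa5 (adjusted p = 0.214), -0.081 for Hoxa2 (adjusted p = 0.292) and -0.015 for Hoxd1 (adjusted p = 0.815), each smaller than its bound, and all of these but Hoxb5 lost their call. Hoxb3 and Hoxb6 were above background on 1 and 2 of the 3 SC1 arrays and are given no fold. The calls of Hoxa2, Hoxa4, Hoxb3 and Hoxb6 were each lost when single arrays were left out, with adjusted p up to 0.0827, 0.0731, 0.125 and 0.119. The number of lower Hox genes fell to 9 without DMSO array 2, DMSO array 3 or SC1 array 3, to 8 with the slide column as a block and to 7 with normexp and 75th percentile scaling, where Hoxa4 and Hoxa6 changed sign.

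By position along the clusters, a division chosen after the values were seen and not tested, the counts were as follows. Of the 20 genes of paralog groups 1 to 7, which lie toward the 3′ end of the clusters, 16 were tested, with 13 lower, 1 higher (Hoxc4, 0.92) and 2 that did not pass. Of these 16, 10 were above background on all 6 arrays, with 7 lower and 1 higher, and the other 6 passed the filter through the DMSO arrays alone, which favours a lower value in SC1. Of the 19 genes of groups 8 to 13, 5 were tested, with 3 higher (Hoxb9, Hoxb13 and Hoxc13) and 2 that did not pass. Over all 21 tested Hox genes the median log2 fold change was -0.85. With the 4 genes not above background on any SC1 array at their bounds it was -0.33. For groups 1 to 7 these medians were -1.10 and -0.82, and for groups 8 to 13 the median was 0.43. Hoxb3 and Hoxb6 kept their fitted values in the medians for all tested genes and for groups 1 to 7. The median of -0.85 falls on Hoxb6. These medians thus rest in part on genes that passed the filter through the DMSO arrays alone. Medians over only the genes above background on all 6 arrays were not computed.

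**Figure D5:**
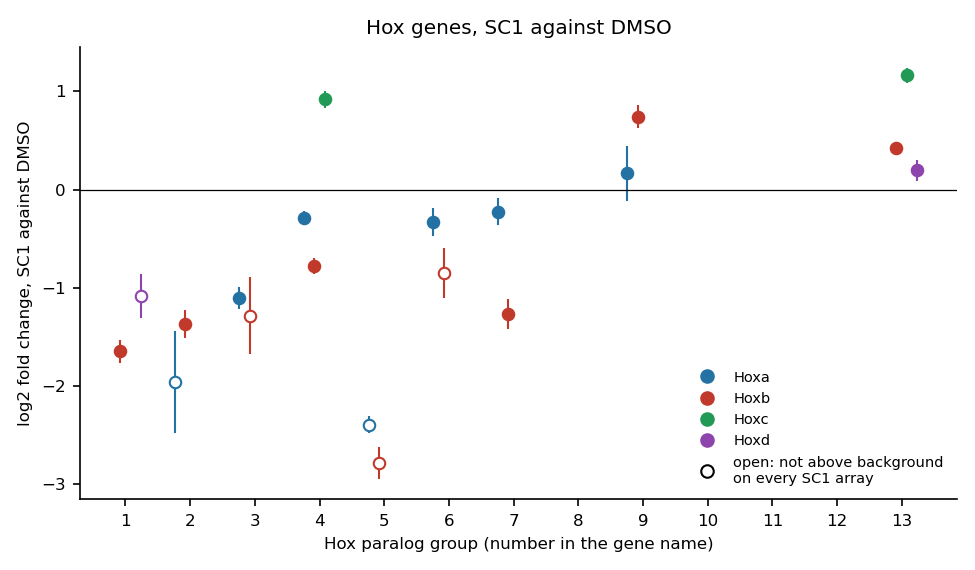
Log2 fold change of SC1 against DMSO (with SE) for 20 of the 21 Hox genes tested, by the paralog number in the gene's name and coloured by cluster, with open symbols for genes not above background on every SC1 array, whose fitted values are no bounds. Most genes of groups 1 to 7 lie below 0, with Hoxc4 above it, and the 5 tested genes of groups 9 and 13 lie above 0. With normexp and 75th percentile scaling Hoxa4 and Hoxa6 lie above 0 too.

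Bivalent developmental genes outside the Hox clusters changed in both directions. Of 35 such genes 28 were tested, with 9 higher, 3 lower and 16 that did not pass, so 42.9% passed against 38.4% of all genes. All 9 higher genes and 2 of the 3 lower were above background on all 6 arrays. The other lower gene, Cdx2, passed the filter through the DMSO arrays alone (limma adjusted p = 0.0488). Its adjusted p rose to as much as 0.136 when single arrays were left out. The count of higher genes fell to 5 with spike-in scaling, 4 with the slide row as a block and 2 with the slide column. Gsc, a homeobox gene of the organizer, had levels of -3.83, -4.75 and -4.31 in DMSO and -1.48, -1.56 and -1.54 in SC1, with a log2 change of 2.77 with SE 0.22 (adjusted p = 0.000328) that was 1.54 at its smallest over the alternatives. Pax6, a neural and eye gene, had levels of -2.01, -2.08 and -1.97 in DMSO and -3.80, -3.86 and -3.84 in SC1, with a log2 change of -1.81 with SE 0.046 (adjusted p = 1.03e-05) that was -0.87 at its smallest. Eomes, a gene of trophoblast and mesendoderm, fell by 0.38 on the log2 scale (adjusted p = 0.00173).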

How the data were processed

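Each sample was measured on 1 Agilent array. Per the labels, the dye was Cy3. Agilent Feature Extraction 10.7 read the spots, per the submitters' processing notes. The deposited intensity of each spot is a background-corrected processed signal, and per the file headers flag columns mark spots well above background, outlying or saturated (137 to 201 outliers per array were left out and none was saturated). A log2 matrix that the authors deposited was made by a method not given in the sources used here. Its median was 5.17 on each array, and its values lay within 0.037 (median) of quantile-normalized log2 signals.

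Here the log2 processed signal was averaged over spots of a probe, and the log2 of the array's 75th percentile (608 to 612 in DMSO, 502 to 557 in SC1) was subtracted. A probe was kept if all 3 arrays of either group had it well above background. A RefSeq table named 27235 of 55681 probes by accession, and the brightest probe stood for a gene. SC1 was set against DMSO with the lmFit and eBayes functions of limma 3.58.1 (R 4.3.3), two-sided, with Benjamini-Hochberg adjustment over all genes and a threshold of 0.05. The number of arrays limits the precision. The pipeline was tested on simulated data. Paralog pairs were compared with exact permutation tests. The 34 members, the paralog pairs and all lists were chosen with earlier results of these data known. Named genes were all members and, of each further list, up to 4 passing, non-overlapping genes with the smallest p. A few genes this rule picks are left out of the text. Others (Hoxa2, Hoxa4, Hoxb3, Hoxb6, Hoxb9, Hoxb13, Hoxc4, Hoxd1, Cdx2) were chosen after their values were seen. Alternatives were quantile, median and spike-in scaling, normexp background (offset 50), the deposited matrix, no filter, detection on all 6 arrays, averaged probes, every probe tested, a trended robust prior, a threshold of 0.01, replicate and slide position blocks, and leaving out each array. Replicates with the same number did not deviate together (r of -0.013, -0.036 and -0.015), and the main fit did not pair them. Such values cannot show whether same-numbered samples were handled as pairs. Plots used Python 3.11.15 and matplotlib 3.10.9.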

Additional observations from a re-analysis of the deposited data

How the results depend on the processing

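The counts of 9 members higher and 8 lower moved to 2 and 5 with spike-in scaling (8 probe sequences), to 5 higher with the slide row as a block, and to 3 and 5 with the slide column. They ranged from 6 to 8 in each direction when 1 array was left out. Of all genes 19.9% passed with spike-in scaling, 21.8% with the slide row and 12.8% with the slide column. With 1 array left out 30.8% to 33.2% of all genes passed. With normexp and 75th percentile scaling 12 members were higher and 10 lower, and the split over all genes was 7536 higher and 4801 lower (61.1% higher) in place of 4893 and 4866 (50.1%). Over all genes spike-in scaling gave 2285 higher and 2782 lower, and the median fold change of all genes stayed between -0.045 and 0.057 on the log2 scale under every alternative. With the replicate number as a block, 7 members were higher and 7 lower, and Ezh2, Rnf2 and Cbx2 lost their calls. The PRC1 minus PRC2 difference of 0.0043 moved to -0.088 with quantile normalization, -0.072 with normexp and quantile scaling, -0.092 in the deposited matrix and 0.10 with the mean of a gene's probes. With normexp and 75th percentile scaling, Hoxa4 changed sign to 0.031 and Cdx2, at least 1.37-fold lower and not above background on any SC1 array, to 0.029. Of the members that did not pass, 6 (Suz12, Cbx6, Cbx7, Bcor, Pcgf3 and Asxl1) passed under at least 1 alternative. Over the settings run on the lists, higher and lower counts spanned 0 to 1 and 0 to 2 (other PRC2-associated), 2 to 5 and 0 to 5 (other PRC1-associated), 1 to 3 and 0 to 4 (H2A deubiquitination), 1 to 7 and 0 to 4 (lysine 4 methylation), 3 to 6 and 7 to 13 (Hox) and 2 to 13 and 1 to 4 (other bivalent genes). The causes were not tested. Alternatives for named genes outside the members, and left-out arrays and normexp for the list counts, were added after seeing the data. Signals close to background limit Cbx7, Cbx8 and most Hox genes.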
